A study of Solanum lycopersicum with 4 samples.

Results

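The ascorbate-glutathione cycle was followed at the transcript level in tomato leaves held at 10 °C. The group consists of 10 genes, chosen by identifier from the 26219 genes listed in any of the deposited files, and all 10 were listed in all 4 files. By the names given in the list that chose them, they are 5 ascorbate peroxidases (APX1, APX2, an APX-like gene, a stromal APX and a thylakoid APX), 2 dehydroascorbate reductases (DHAR), 1 monodehydroascorbate reductase (MDHAR) and 2 glutathione reductases (GR). RNA was taken from the earliest true leaves (the first pair) of Solanum lycopersicum cultivar Moneymaker, on seedlings aged 3 weeks that had spent 0, 3, 24 or 48 h at 10 °C. There was 1 library per time, and how many plants went into each is not given in the sources used here. Growth before the shift was at 25 °C in a photon flux of 100 µmol m-2 s-1, which was reduced to 40 for the cold period, and the photoperiod was 12 h throughout. The title of the 0 h library also names 10 °C, and temperature and light cannot be told apart in any ratio to a 0 h sample taken before the shift.

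The cycle removes hydrogen peroxide with reducing power from NADPH or NADH. Ascorbate peroxidase reduces hydrogen peroxide to water at the expense of ascorbate, and the oxidised products are turned back into ascorbate by MDHAR, which draws on NAD(P)H, and by DHAR, which draws on glutathione. Glutathione reductase then restores reduced glutathione with NADPH. In leaves the cycle runs in chloroplasts, where photosystem I can pass electrons to oxygen, and also in the cytosol, mitochondria and peroxisomes.

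The files carried identifiers without descriptions, so the names could not be checked on the identifiers themselves. The RefSeq table available, of assembly SLM_r2.1 with 41476 genes, uses other identifiers throughout. That table does hold genes with the symbols APX2, APX1 and APX7 on chromosome 6 in that order, DHAR1 on chromosome 5, DHAR2 and APX6 on chromosome 11, and GR and GR1 on chromosome 9. The members' identifiers name the same chromosomes, by the convention that the digits before the letter g give the chromosome, except that the APX-like gene of chromosome 9 has no counterpart among these symbols. For MDHAR, an identifier of chromosome 9, the table has that symbol on chromosome 8 and lists it as a synonym of AFRR on chromosome 9. The tissue was not checked against leaf markers for the same want of names.

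The libraries held between 35.7 M and 38.5 M unique reads (M, units of 1000000). The 9 members other than the APX-like gene had between 1524 and 34174 reads per library, with 93.98% to 99.88% of their length covered, so their counting error was small. No spread between plants can be estimated, hence no difference here has a p-value, and each interval below is an exact Clopper-Pearson interval (95%) for counting error alone. The files count reads, which need not be separate molecules, so these intervals are a lower limit on the error. Levels are given as CPM per kb, that is, reads per 1000000 reads of a library scaled by TMM (a factor that centres the bulk of genes) and per kilobase of gene length. Folds are ratios of scaled counts, and log2 ratios add a pseudocount of 5 reads. In leaf RNA, fewer cells of a type and less RNA per cell cannot be told apart.

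Of the 10 genes, APX1 had the most abundant transcript at every time, and it and its neighbour APX2 had the largest ratios to 0 h after 48 h. At 48 h these genes were 2.18-fold and 2.23-fold their 0 h level, and they were the only members, of the 9 with enough reads to compare, to reach 2-fold with TMM in any of the 5 comparisons made. The same 2-fold rise at 48 h was seen for 10.0% of the 13840 genes tested. The second glutathione reductase, Solyc09g091840, stood at 1.67-fold after 48 h, and the stromal APX at 1.35-fold. With TMM the DHAR genes, MDHAR and the other GR had folds to 0 h between 0.874 and 1.17 at all later times. The thylakoid APX ended below its starting level. Summed over the 10 genes, the level was 1116 CPM per kb at 0 h, 1145 after 3 h, 1396 after 24 h and 1599.7 after 48 h. With TMM, APX1 made up 83.9% of the difference between 48 and 0 h. Without APX1 the sum after 48 h was 1.10-fold the 0 h level, or 1.31-fold with libraries scaled by plain totals. As a share of all reads, which amounts to scaling by plain totals, the 10 genes took 0.214% after 48 h and 0.128% at 0 h.

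**Figure D1:**
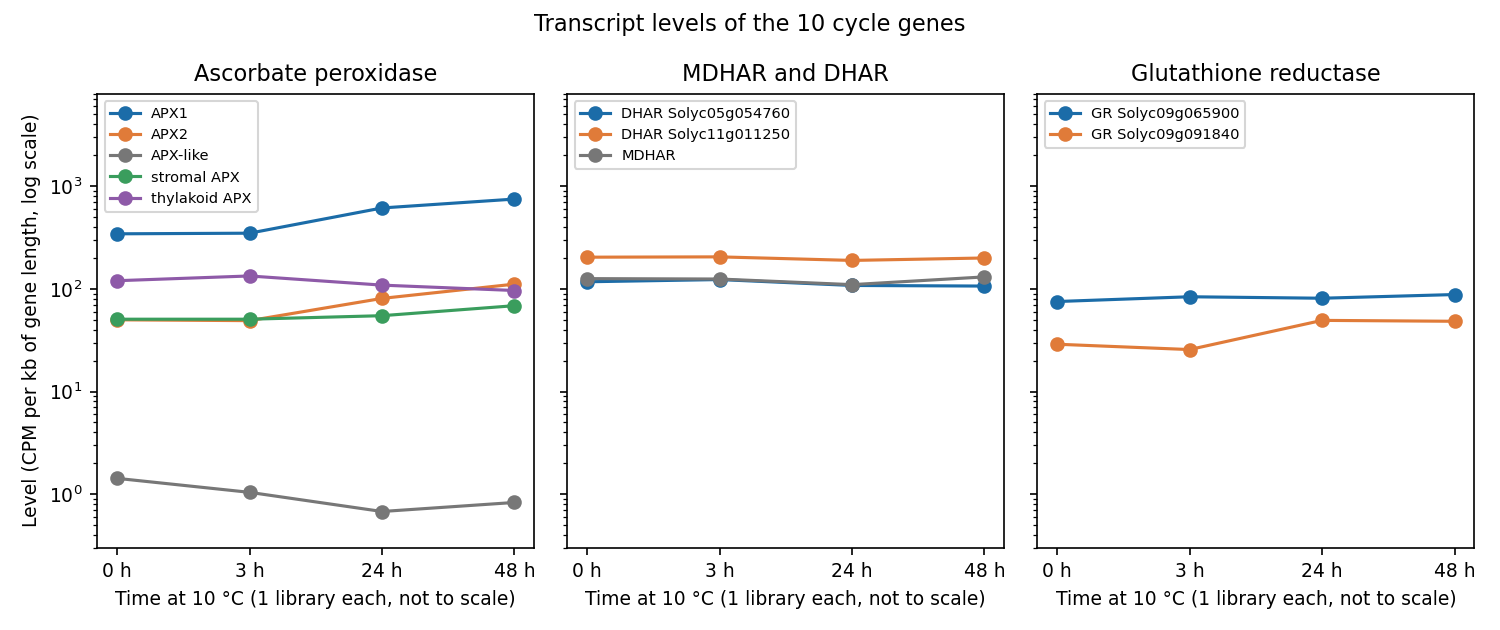
Level of each of the 10 genes (CPM per kb of gene length, log scale) at 0, 3, 24 and 48 h, 1 library per point, in panels for ascorbate peroxidase, for MDHAR and DHAR, and for glutathione reductase. APX1 climbs to 749 CPM per kb after 48 h while the DHAR and MDHAR lines stay nearly flat and the APX-like gene stays below 2 CPM per kb.

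APX1, a name used in tomato for a cytosolic peroxidase, is Solyc06g005160.2.1. It had 13575 reads (344 CPM per kb) at 0 h, 12340 (348) after 3 h, 25495 (614) after 24 h and 34174 (749) after 48 h. The 0 and 3 h libraries were alike and the later ones were higher. The fold was 1.01 at 3 h against 0 h (0.990 to 1.04), 1.79 after 24 h (1.75 to 1.82) and 2.18 after 48 h (2.14 to 2.22), and a further 1.22-fold separated 48 h from 24 h (1.20 to 1.24). At 48 h 8.23% of the 13840 genes that passed the filter on low counts had a larger ratio to 0 h. Among those genes, 99.2% had a lower per-length level than APX1 after 48 h and 97.8% had one at 0 h.

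APX2, Solyc06g005150.2.1, is the next gene in identifier order to APX1, with none listed between them. Its transcript had 2009 reads (49.9 CPM per kb) at 0 h, 1767 (49.0) after 3 h, 3414 (80.7) after 24 h and 5163 (111) after 48 h. As for APX1, the 0 and 3 h libraries were low and the 48 h library was the highest. It was 0.981-fold its 0 h level after 3 h (0.920 to 1.05), 1.62-fold after 24 h (1.53 to 1.71) and 2.23-fold after 48 h (2.11 to 2.34). The step from 24 to 48 h, 1.38-fold (1.32 to 1.44), was larger than that of 92.8% of genes. APX2 had the widest range of the members compared, 1.18 in log2 over the 4 libraries, followed by APX1 with 1.12.

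The level of APX1 relative to APX2 within a library, which does not depend on how libraries are scaled, was 6.88 at 0 h (6.57 to 7.21), 7.11 after 3 h (6.76 to 7.48), 7.60 after 24 h (7.34 to 7.88) and 6.74 after 48 h (6.55 to 6.94). The intervals at 0 and 48 h overlapped, and the ratio after 24 h lay above both. Over the 3 log2 ratios to 0 h, APX1 lay at a distance of 0.16 from APX2, and 53 of the other 13839 genes lay nearer to APX2, against a median distance of 1.48 over all of them. The nearest genes that are not members were Solyc12g096150.1.1 at a distance of 0.030 and Solyc06g060400.2.1 at 0.0475, which carry no description here. All these distances rest on 4 libraries and share the one at 0 h. The genes on either side of the pair were also higher at 24 and 48 h than at 0 h, though not by the same ratios throughout. The one before it had log2 ratios to 0 h of -0.33, 1.62 and 1.76 at 3, 24 and 48 h, and the one after it 3.35, 0.65 and 0.69. For APX1 these ratios were 0.020, 0.84 and 1.12, and for APX2 -0.027, 0.69 and 1.15. If unique reads exclude those that match several copies, stretches shared by APX1 and APX2 would be undercounted, and this was not tested.

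The APX-like gene, Solyc09g007270.2.1, was barely detected. It had 58 reads at 0 h, 38 after 3 h, 29 after 24 h and 39 after 48 h, or between 0.678 and 1.43 CPM per kb, with 53.2% to 73.7% of its length covered. That was too few to pass the filter of 5 CPM on average, so it enters no count of members. Its counts were lower in the 3 cold libraries than at 0 h, with a fold of 0.475 after 24 h (0.294 to 0.755) and of 0.582 after 48 h (0.378 to 0.889), while the fold of 0.731 after 3 h had an interval that included no difference (0.472 to 1.12). APX1 stood 903 times above it per length after 48 h (660 to 1270) and 241 times at 0 h (186 to 318).

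The chloroplast forms went separate ways, though neither reached 2-fold. The stromal APX, Solyc06g060260.2.1, had 2711 reads (50.6 CPM per kb) at 0 h, 2430 (50.6) after 3 h, 3085 (54.8) after 24 h and 4239 (68.6) after 48 h. It was level after 3 h (1.00-fold, 0.946 to 1.06), 1.08-fold its 0 h level after 24 h (1.03 to 1.14) and 1.35-fold after 48 h (1.29 to 1.42). Most of that difference lay between 24 and 48 h, where the fold was 1.25 (1.19 to 1.31). Its log2 ratio to 0 h after 48 h was 0.44, or 0.69 with plain library totals. The thylakoid APX, Solyc11g018550.2.1, had 6134 reads (120.0 CPM per kb) at 0 h, 6117 (134) after 3 h, 5842 (109) after 24 h and 5686 (96.4) after 48 h. It was highest after 3 h and lowest after 48 h, with folds to 0 h of 1.11 after 3 h (1.07 to 1.15), 0.906 after 24 h (0.874 to 0.939) and 0.803 after 48 h (0.774 to 0.832). With plain library totals instead of TMM its log2 ratio after 24 h was 0.039 in place of -0.14, and that after 48 h was -0.065 in place of -0.32.

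**Figure D2:**
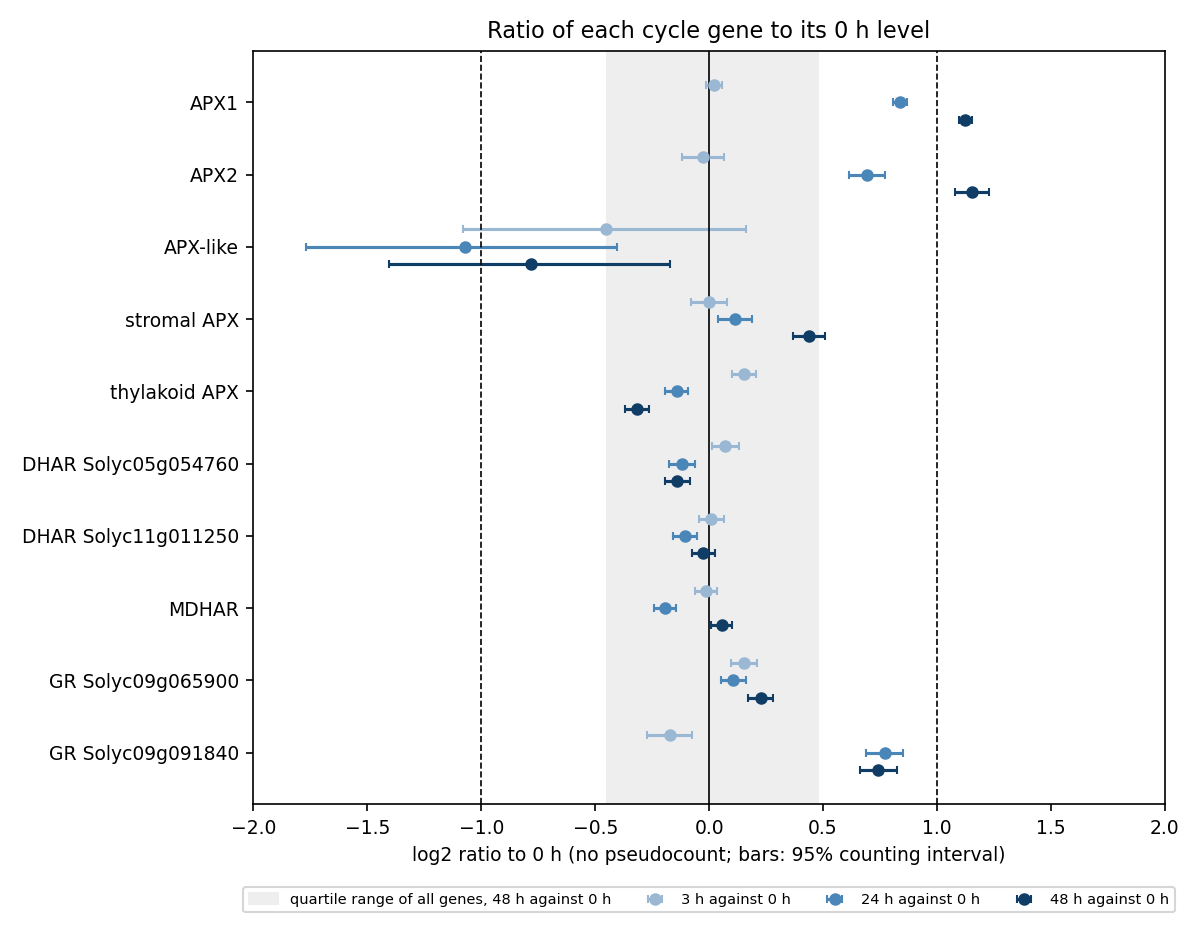
log2 ratio of each gene to its 0 h level without a pseudocount, at 3, 24 and 48 h, with 95% counting intervals; dashed lines mark 2-fold and the grey band the range between the quartiles of the 13840 genes at 48 h against 0 h. APX1 and APX2 lie beyond the right dashed line after 48 h and GR Solyc09g091840 short of it, while DHAR and MDHAR points stay inside the band. After 24 h the APX-like gene lies beyond the left dashed line, at -1.07 (-1.77 to -0.41), on 29 reads against 58 at 0 h.

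Within a library the thylakoid form had 2.37 times the per-length level of the stromal form at 0 h (2.27 to 2.48), 2.64 times after 3 h (2.52 to 2.77), 1.98 times after 24 h (1.90 to 2.07) and 1.41 times after 48 h (1.35 to 1.46). These 4 intervals did not overlap each other. APX1 had 2.86 times the level of the thylakoid form at 0 h (2.78 to 2.95), 2.61 times after 3 h (2.53 to 2.69), 5.65 times after 24 h (5.49 to 5.81) and 7.78 times after 48 h (7.56 to 7.998). Of the summed level of the 5 peroxidases, APX1 accounted for 73.0% after 48 h and 60.8% at 0 h, or 69.3% (68.9% to 69.7%) and 55.4% (54.8% to 56.1%) of their reads without division by length. The thylakoid form accounted for 9.39% of the level after 48 h and 21.2% at 0 h, or 11.5% (11.3% to 11.8%) and 25.1% (24.5% to 25.6%) of the reads. APX2 held 10.8% after 48 h and 8.83% at 0 h, and the stromal form 6.68% and 8.95%. The summed peroxidases were 1.03-fold their 0 h level after 3 h, 1.52-fold after 24 h and 1.81-fold after 48 h with TMM, and 0.985-fold, 1.72-fold and 2.16-fold with plain library totals.

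**Figure D3:**
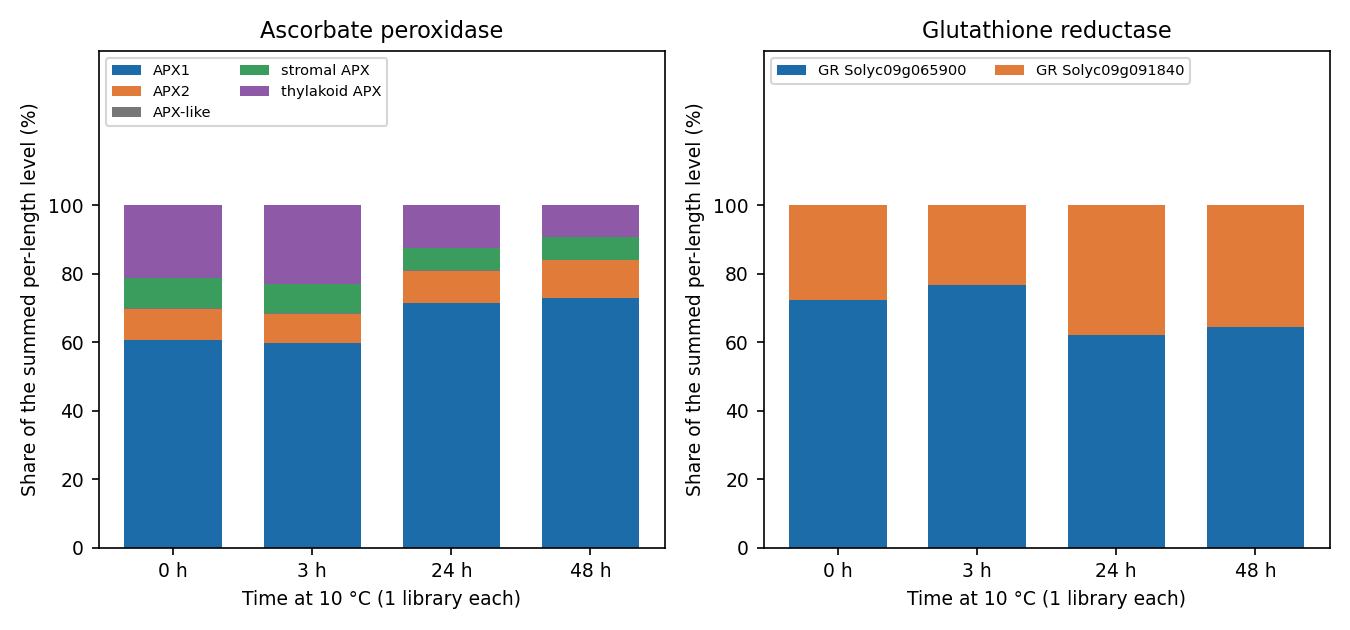
Share of each gene in the summed per-length level of its enzyme (percent, stacked to 100) in the 4 libraries, for ascorbate peroxidase and for glutathione reductase. The APX1 share reaches 73.0% after 48 h while the thylakoid share is 9.39% there, and GR Solyc09g091840 takes its largest share, 37.8%, after 24 h.

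MDHAR, which reduces the ascorbate radical directly, is represented by Solyc09g009390.2.1. It had 7110 reads (126 CPM per kb) at 0 h, 6316 (125) after 3 h, 6532 (109.9) after 24 h and 8533 (131) after 48 h. The 24 h library was the low one with TMM, while with plain totals the 3 h library was, at 112 CPM per kb against 117 after 24 h. The fold to 0 h was 0.991 after 3 h (0.958 to 1.03), 0.874 after 24 h (0.845 to 0.904) and 1.04 after 48 h (1.01 to 1.07), and 48 h stood 1.19-fold above 24 h (1.15 to 1.23). With plain library totals the log2 ratio at 24 h against 0 h was -0.013 in place of -0.19, and that at 48 h was 0.31 in place of 0.056. APX1 had 5.73 times its per-length level after 48 h (5.60 to 5.87) and 2.73 times at 0 h (2.65 to 2.81).

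The DHAR genes, which return dehydroascorbate to ascorbate with glutathione, varied little. The chromosome 11 gene, Solyc11g011250.1.1, was the second most abundant member per length throughout. It had 5934 reads (203 CPM per kb) at 0 h, 5358 (205) after 3 h, 5803 (189) after 24 h and 6730 (199.9) after 48 h. At 807 bases it is the shortest of the 10 genes. Without division by length, MDHAR stood above it in every library, and the thylakoid APX did at 0, 3 and 24 h. The levels of the chromosome 11 gene spanned 0.115 in log2, the narrowest range of the 9 members with TMM. With plain library totals it spanned 0.28, and the chromosome 5 gene had the narrowest range, 0.11. The fold to 0 h was 1.01 after 3 h (0.971 to 1.05), 0.930 after 24 h (0.897 to 0.964) and 0.982 after 48 h (0.948 to 1.02). The chromosome 5 gene, Solyc05g054760.2.1, had 4922 reads (117 CPM per kb) at 0 h, 4637 (123) after 3 h, 4765 (108) after 24 h and 5161 (106) after 48 h. It was 1.05-fold its 0 h level after 3 h (1.01 to 1.09), 0.921-fold after 24 h (0.885 to 0.958) and 0.908-fold after 48 h (0.873 to 0.945). All 4 of these later log2 ratios changed sign under plain totals and kept it under DESeq2 size factors. For the chromosome 11 gene after 48 h, whose interval included no difference, the value under DESeq2 size factors was -0.0006. Under plain totals the log2 ratios at 48 h against 0 h were 0.23 for the chromosome 11 gene and 0.11 for the chromosome 5 gene, in place of -0.026 and -0.14. Within a library the chromosome 11 gene had 1.88 times the per-length level of the chromosome 5 gene after 48 h (1.81 to 1.95) and 1.74 times at 0 h (1.67 to 1.80). Without division by length it held 56.6% (55.7% to 57.5%) of the reads of both genes after 48 h and 54.7% (53.7% to 55.6%) at 0 h.

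Of the glutathione reductases, which regenerate the reduced glutathione that DHAR consumes, the one with the lower level moved more. Solyc09g091840.2.1 had 1916 reads (28.9 CPM per kb) at 0 h, 1524 (25.6) after 3 h, 3440 (49.3) after 24 h and 3702 (48.3) after 48 h. The early libraries were low and the late ones high. At 3 h it was 0.887-fold its 0 h level (0.829 to 0.9495), the lowest ratio of the 9 members compared at that time, and at 24 and 48 h it was 1.71-fold (1.61 to 1.81) and 1.67-fold (1.58 to 1.77). The 24 and 48 h libraries did not differ beyond counting error (0.980-fold, 0.935 to 1.03). Against 3 h its level after 24 h was 1.92-fold (1.81 to 2.05), short of 2-fold with TMM, while its log2 ratio was 1.19 with plain library totals. Solyc09g065900.2.1 had 4931 reads (75.3 CPM per kb) at 0 h, 4919 (83.7) after 3 h, 5582 (81.0) after 24 h and 6658 (88.0) after 48 h. All 3 cold libraries were slightly above 0 h, with folds of 1.11 (1.07 to 1.16), 1.08 (1.04 to 1.12) and 1.17 (1.13 to 1.21) at 3, 24 and 48 h. Its log2 ratio to 0 h after 48 h was 0.23, or 0.48 with plain library totals. At 24 h against 3 h the log2 ratio was -0.048, or 0.20 with those totals.

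The balance between the reductase genes therefore differed between the libraries beyond counting error, with 1 library per time. Solyc09g065900 had 2.61 times the per-length level of Solyc09g091840 at 0 h (2.47 to 2.75), 3.27 times after 3 h (3.09 to 3.46), 1.64 times after 24 h (1.57 to 1.72) and 1.82 times after 48 h (1.75 to 1.90), and no pair of these intervals overlapped. The share of Solyc09g091840 in the reads of both genes was 35.7% (34.8% to 36.7%) after 48 h and 28.0% (26.9% to 29.1%) at 0 h. Their summed level was 1.05-fold the 0 h level after 3 h, 1.25-fold after 24 h and 1.31-fold after 48 h with TMM, and 1.00-fold, 1.42-fold and 1.56-fold with plain library totals. The sum of the DHAR genes was 0.955-fold after 48 h with TMM and 1.14-fold with plain library totals.

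**Figure D4:**
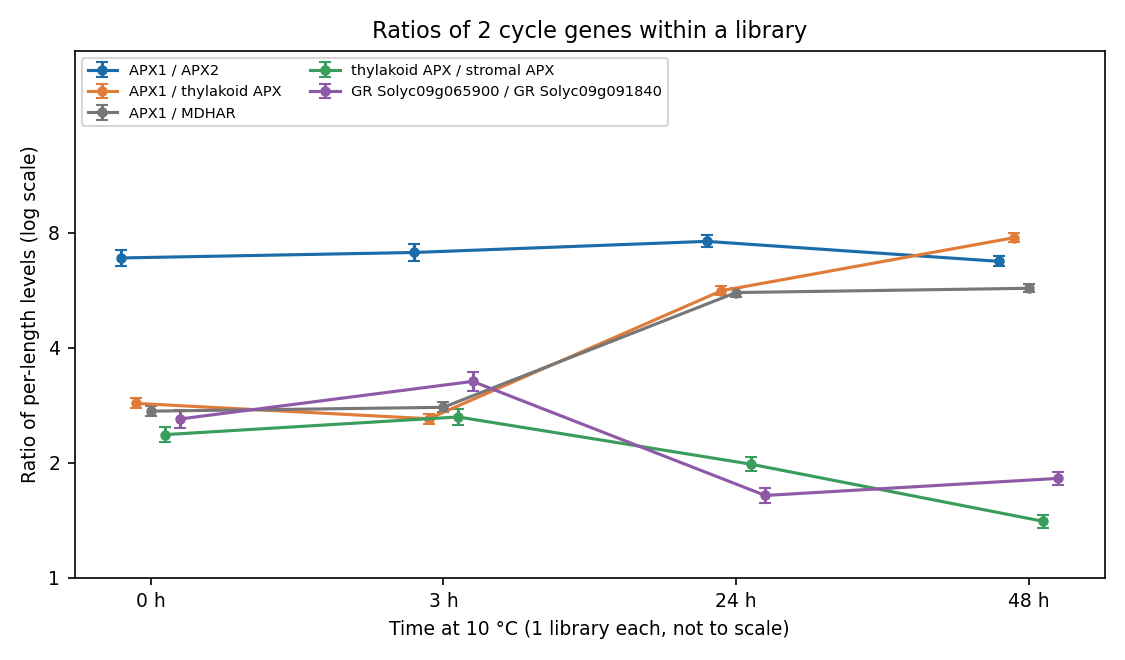
Ratio of the per-length levels of 2 genes within the same library (log scale) at 0, 3, 24 and 48 h, with 95% counting intervals. APX1 over APX2 stays between 6.74 and 7.60, while APX1 over the thylakoid APX reaches 7.78 after 48 h and the ratio of the glutathione reductases is 1.64 after 24 h.

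In per-length order, APX1 and the chromosome 11 DHAR came first and second in every library. At 0 h MDHAR, the thylakoid APX and the chromosome 5 DHAR followed closely, the last pair not separable by counting error (1.02-fold, 0.986 to 1.06), and neither were the stromal APX and APX2 (1.01-fold, 0.956 to 1.07). At 24 h MDHAR, the thylakoid APX and the chromosome 5 DHAR stood at 109.9, 109 and 108 CPM per kb, and GR Solyc09g065900 and APX2 at 81.0 and 80.7, with no neighbours within either set separable. By 48 h APX2 ranked 4 of the 10, against 8 at 0 h, and the thylakoid APX ranked 6, against 4. GR Solyc09g091840 ranked 9 and the APX-like gene 10 at each time.

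The members past 2-fold were counted beside all genes. At 3 h against 0 h none of the 9 was 2-fold higher or lower, while 4.76% of the 13840 genes were higher and 1.13% lower, and the members' median log2 ratio was 0.010 (0.0024 over all genes). At 24 h against 0 h again none was, while 9.65% of all genes were higher and 8.28% lower, with medians of 0.11 for the members and 0.023 for all. At 48 h against 0 h 2 were higher, APX1 and APX2, and none lower, while 10.0% of all genes were higher and 8.48% lower, with medians of 0.23 and 0.0046. With 9 genes, a count of 2 does not set the members apart from that background. At 24 h against 3 h none passed, while 8.24% of all genes were higher and 9.45% lower, and at 48 h against 24 h none passed, while 1.12% were higher and 1.47% lower. The hour of harvest is not given in the sources used here. If all plants were moved at the same hour, the 3 h library differed from the others also in hour of day. That would hold against 0 h and against 24 h alike, and was not tested. The comparisons with 0 h share a single library, so their values are given side by side and not as separate evidence.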

How the data were processed

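Per the file headers, each deposited file listed genes with a unique read count, a length, a coverage in percent and an RPKM. How reads were aligned and counted, with which build, annotation and strand setting, is not given in the sources used here. Per the file headers the deposited counts sum to the stated library totals, and the authors' RPKM followed from count, length and total, so it scaled each library by its total alone. RPKM was not used further. Coverage percent, as deposited, served only as a description. Unnamed cells with fragments of annotation text in 2 files were not used and touched no member.

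TMM from edgeR 4.0.16 (R 4.3.3) was used for scaling only, with factors of 0.94, 0.90, 1.06 and 1.12 at 0, 3, 24 and 48 h. Log2 ratios used CPM plus 0.135 CPM (5 reads at the mean library). Genes listed in all 4 files with a mean of at least 5 CPM were compared, 13840 of 26219, and a gene was called at 2-fold or more. Intervals were computed with scipy 1.17.1. With 1 library per time no test was possible. The computation was tested on simulated data. The 10 genes, the thresholds and the rule for naming other genes were chosen with earlier results of these data known. That rule named the 2 genes that are not members whose 3 log2 ratios to 0 h lie nearest to those of the member with the widest range. The genes on either side of APX1 and APX2 were looked up after seeing the data. A list of other genes of the pathway and leaf markers was not used, since the identifiers carry no names here. Alternatives were DESeq2 1.42.0 size factors, plain totals, other pseudocounts, filters and fold thresholds, and shares without division by length.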

Additional observations from a re-analysis of the deposited data

Results flagged for a closer look

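For 3 members the ratio to 0 h had one direction at 3 h and the other at 24 and 48 h, with counting intervals that excluded no difference on each side. The difference between times was not tested, since each time has 1 library. The 3 h library may also differ from the others in hour of day, which is not given. GR Solyc09g091840 had log2 ratios to 0 h of -0.17 after 3 h, 0.77 after 24 h and 0.74 after 48 h, and these directions held under every scaling and pseudocount tried. The thylakoid APX had 0.15 after 3 h, -0.14 after 24 h and -0.32 after 48 h, and the direction at 24 h turned with plain library totals. The DHAR on chromosome 5 had 0.072 after 3 h, -0.12 after 24 h and -0.14 after 48 h, and with plain library totals both later directions turned and the ratio after 3 h was 0.0075.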

How the results depend on the processing

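No paired analysis was possible because there are no replicates to pair or to leave out. The alternative for other genes of the pathway was not run, since the identifiers carry no names here. DESeq2 size factors, a pseudocount of 0.5 or 25 reads, a filter at 20 CPM and no filter left all 10 counts of members past 2-fold as they were. Plain library totals moved the median log2 ratio of all genes to 0.20 at 24 h and 0.26 at 48 h against 0 h and to 0.25 at 24 h against 3 h. With them 1 member was 2-fold higher at 24 h than at 0 h and 2 at 24 h than at 3 h, in place of none, where 13.2% and 12.9% of all genes were higher. At 48 h against 0 h the count stayed at 2 with them, beside 15.6% of all genes in place of 10.0%. A threshold of 1.5-fold gave 3 higher members at 24 h against 0 h, at 24 h against 3 h and at 48 h against 0 h. The shares of all genes there were 20.5%, 18.2% and 20.9%. With a threshold of 4-fold the count at 48 h against 0 h was 0 in place of 2, beside 2.06% of all genes. A lower or higher threshold moves counts by construction. Of the 50 member ratios, 14 changed sign under some alternative, the largest of them -0.19 in log2 with TMM, and none of those past 2-fold did. With plain totals the log2 ratios at 48 h against 0 h were 1.38 for APX1 and 1.40 for APX2. Shares computed on reads in place of per-length levels moved beyond counting error in 24 of 36 cases. The low counts of the APX-like gene limit what can be said of it.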
